A study of Mus musculus with 2 samples.

Results

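The Wnt ligands, their receptors and their secreted antagonists were described in intestine of mouse embryos at embryonic day 15.5. The members were 56 genes taken by name from a fixed list and matched by Ensembl identifier, out of 43346 genes in the deposited tables, and all 56 had an entry. They fall into 8 roles: 19 Wnt ligands, 10 frizzled receptors, 5 other receptors, 10 secreted antagonists, 2 Dkk receptors, 4 R-spondins, 2 genes of ligand secretion and 4 nuclear TCF/LEF factors. The material was intestine of healthy embryos of strain B6NCrl, with no allele or treatment named in the labels, in 1 group of 2 total RNA libraries. Replicate 1 came from a pool of 78 embryos and replicate 2 from a pool of 62, males and females together. There was no second tissue, age or condition to compare with and therefore no test. Levels are in TPM, a length-corrected share of all transcripts in a library, and differences are set against the spread between the libraries (n = 2 throughout).

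Wnt proteins are lipid-modified signals that act over short distances. Porcupine (Porcn) attaches the lipid and Wntless (Wls) carries the ligand to the cell surface, where frizzled proteins receive it together with Lrp5 or Lrp6, leading to stabilised beta-catenin and activation of TCF/LEF target genes. Ror and Ryk receptors relay signals that do not need beta-catenin, R-spondins keep frizzled proteins at the membrane, and Sfrp, Dkk, Wif1 and Notum proteins dampen the signal. In the intestine the beta-catenin branch maintains epithelial progenitors, and Wnt5a from the mesenchyme is known for its part in elongation of the gut.

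The 2 gene tables held 34406872 and 40669822 estimated counts. Markers of epithelium, mesenchyme, smooth muscle, mesothelium, endothelium, enteric neurons and macrophages were each detected 5 of 5 in both libraries, and those of the interstitial cells of Cajal 3 of 3. None of 5 T cell markers reached a TPM of 1, with sums of 2.50 and 2.07. The summed TPM of 7 pancreas markers was 5385 in replicate 1 and 1878 in replicate 2, that of 5 liver markers 683 and 482, that of 7 kidney, gonad and adrenal markers 24.9 and 3.39, and that of 5 skeletal muscle markers 12.8 and 29.2. These marker sums thus differed between the libraries, and whether they come from neighbouring organs or from the gut itself was not tested. In whole tissue, fewer cells of a type and less RNA per cell cannot be told apart.

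Wnt5b is shown first by sequence, because the deposited maximum-likelihood estimate split its output between 2 annotated start sites that lie far apart on chromosome 6 (minus strand). The windows below hold the 250 bases before each RefSeq start (GRCm38.p6), written 5′ to 3′ on the strand of the gene, with the motif CTTTGA or its other strand TCAAAG in capitals. This motif is the core that TCF/LEF factors are known to bind, and a match of letters is not a site.
Upstream start, chr6:119544348-119544597: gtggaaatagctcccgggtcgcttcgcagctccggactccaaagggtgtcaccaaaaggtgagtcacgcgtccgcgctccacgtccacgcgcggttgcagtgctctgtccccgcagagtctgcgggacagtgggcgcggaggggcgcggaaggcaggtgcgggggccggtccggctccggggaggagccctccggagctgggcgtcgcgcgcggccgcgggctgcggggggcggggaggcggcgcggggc
Middle start, chr6:119467212-119467461: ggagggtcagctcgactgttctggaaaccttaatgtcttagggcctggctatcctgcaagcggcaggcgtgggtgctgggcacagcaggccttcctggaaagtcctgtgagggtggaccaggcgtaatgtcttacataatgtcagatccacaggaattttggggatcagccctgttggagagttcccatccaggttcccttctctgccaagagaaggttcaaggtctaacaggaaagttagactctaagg
Downstream start, chr6:119449387-119449636: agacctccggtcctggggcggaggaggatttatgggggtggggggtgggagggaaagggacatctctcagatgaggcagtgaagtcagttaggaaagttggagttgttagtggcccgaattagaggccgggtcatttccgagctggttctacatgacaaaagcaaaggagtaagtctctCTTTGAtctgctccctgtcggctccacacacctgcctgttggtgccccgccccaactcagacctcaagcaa
The upstream window held 35 CpG dinucleotides and the middle window 4, although transcripts from both starts were estimated above 0. The downstream window held 7 CpG and the only match to the motif of the 3, and the transcript that begins there, Wnt5b-201, was listed at 0% of Wnt5b output in both libraries by that estimate. The leading transcript, Wnt5b-203, begins 29 bases inside the upstream start and took 59.2% of Wnt5b output in replicate 1 and 68.2% in replicate 2. Wnt5b-202, from the middle start 77.1 kilobases further on, took the remaining 40.8% and 31.8%. Its annotated coding sequence is 963 bases against 1116 in Wnt5b-203. Wnt5b-204, which shares the upstream start, was also listed at 0%. The deposited posterior mean estimate divided Wnt5b more widely. It gave Wnt5b-203 42.0% in replicate 1 and 52.7% in replicate 2, Wnt5b-202 29.3% and 27.1%, Wnt5b-204 17.8% and 13.7%, and Wnt5b-201 10.9% and 6.5%. The order of Wnt5b-203 and Wnt5b-202 was thus the same by both estimates, and the zeros of the other transcripts hold for the first estimate alone.

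RefSeq windows of this kind were matched for 38 of the 56 members, in 46 windows. The motif occurred in 7 of the 46 member windows (15.2%) and in 13.8% of all 32851 windows, so its share among members was near that of all genes. Not every window lies before the annotated GENCODE start. Among those with the motif, a Dkk1, a Frzb and a Lef1 window precede RefSeq starts 169, 229 and 43488 bases downstream of the nearest annotated transcript start. Member windows held a median of 20.5 CpG against 6 in all windows. The median was 19.5 in the 26 windows of members detected in both libraries and 20.5 in the 20 windows of the other members, so windows of members with little RNA were about as rich in CpG as those of detected members.

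Of the 56 members, 36 were detected, meaning a TPM of 1 or more in each library. The same held for 62.7% of 21474 protein-coding genes. Dkk1 and Sfrp4 reached it in 1 library each and 18 members in neither. The median member had a mean TPM of 3.01, 13 members had at least 10 and 4 members at least 50. These 4 were the antagonists Sfrp2 (chr3:83766321-83774316, plus strand, in GRCm38) and Sfrp1, the nuclear factor Tcf7l2 (chr19:55741820-55933654, plus strand) and the ligand carrier Wls (chr3:159839672-159938664, plus strand).

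**Figure D1:**
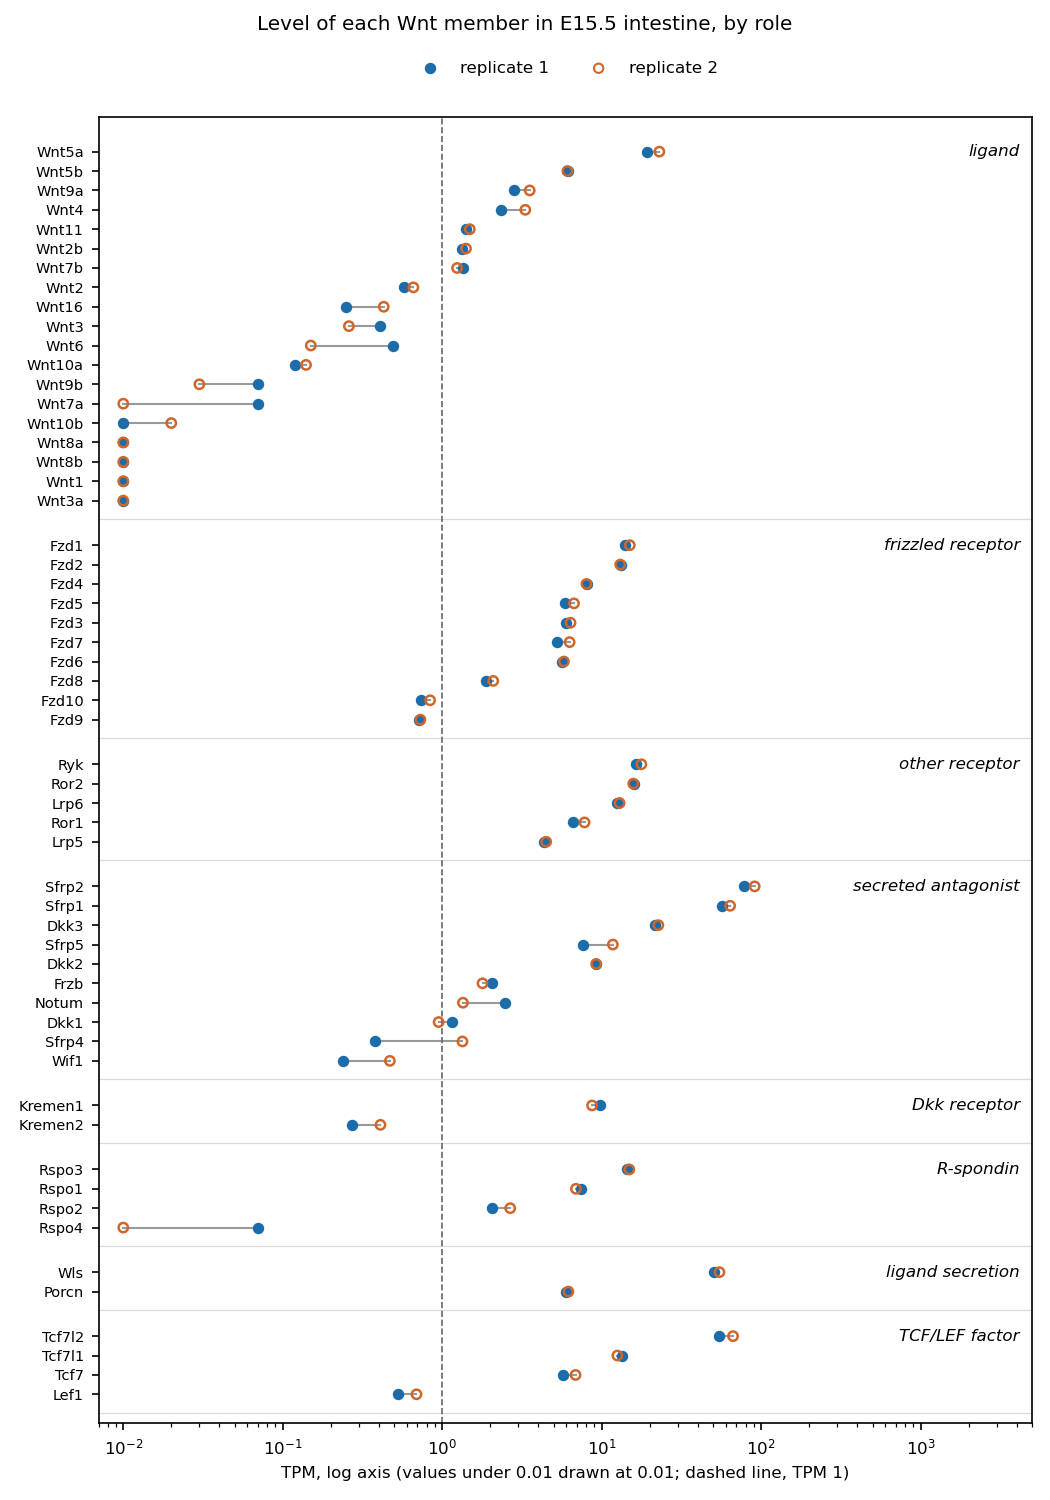
Level of each of the 56 members (TPM, log axis) in replicate 1 (filled points) and replicate 2 (open points), joined by a line and grouped by role, with the detection limit of TPM 1 dashed. Wnt5a stands above the other ligands at 19.4 and 23.0 TPM, and 12 of the 19 ligands lie left of the limit in both libraries.

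Among the ligands, 7 of 19 were detected and 12 were not. Wnt5a, known as a ligand that mostly acts without beta-catenin, had a TPM of 19.4 in replicate 1 and 23.0 in replicate 2 (21.2 ± 2.58, SD). The gene lies at chr14:28504750-28527448, plus strand, in GRCm38. It held 53.8% ± 1.70 (SD) of the summed TPM of all ligands, which was 36.8 and 41.8. Wnt5b, its closest relative, followed with 6.14 and 6.10, so Wnt5a was 3.15-fold and 3.77-fold higher in the same libraries. The ranges of the Wnt5 pair did not overlap.

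Wnt9a had a TPM of 2.84 and 3.54. Wnt4, a ligand best known from kidney and gonad, had 2.35 and 3.32. These ranges overlapped, so the order of Wnt9a and Wnt4 was not resolved. Wnt4 was the detected ligand furthest apart between libraries, with a ratio of count rates of replicate 2 over replicate 1 whose 95% exact counting interval ran from 1.17 to 1.64. The summed TPM of 7 kidney, gonad and adrenal markers went the other way, from 24.9 to 3.39. In replicate 1 this sum was led by Hsd3b1 (12.88) and Star (7.45). Of the 7 markers, 6 were higher in replicate 1, and Six2 was higher in replicate 2 (0.29 and 0.35). Only 1 of the 7 was detected in both libraries, so the sum does not follow each of these organs separately. The part of these organs in the level of Wnt4 was not tested. Wnt11, a ligand of convergent extension movements, had 1.42 and 1.49. Part of this was assigned to Wnt11-202 (0.65 and 0.51) and Wnt11-204 (0.38 and 0), annotated as targets of nonsense-mediated decay. The coding transcripts Wnt11-205 (0.39 and 0.88) and Wnt11-203 (0 and 0.10) were each below a TPM of 1.

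Wnt2b, known as a mesenchymal ligand of the gut, had 1.33 and 1.41. Wnt7b had 1.35 and 1.24, and its range overlapped that of Wnt2b. Together with Wnt11 these ligands lie just above the limit, at 55 to 137 estimated counts per library. Just below it was Wnt2, with 0.58 and 0.66. Of this, the coding transcript Wnt2-201 had 0.17 and 0.66, and a transcript that is not in GENCODE M21 had 0.42 and 0.

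The other ligands were lower. Wnt16 had a TPM of 0.25 and 0.43, Wnt3 0.41 and 0.26, and Wnt6 0.49 and 0.15, and neighbours in this order overlapped. Wnt3 is known as a product of Paneth cells in the adult gut. Wnt10a had 0.12 and 0.14. Wnt9b, Wnt7a and Wnt10b rested on 7 or fewer counts in each library. Wnt1, Wnt3a, Wnt8a and Wnt8b had 0 counts in both. At this depth, 0 counts allow 3, and 3 counts correspond to a TPM of 0.0549 and 0.0472 for Wnt1, 0.0470 and 0.0404 for Wnt3a, 0.0760 and 0.0653 for Wnt8a, and 0.0382 and 0.0328 for Wnt8b, for counting error only.

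Several Wnt genes are neighbours in the genome, and the members of a pair could differ in level. Wnt9a and Wnt3a lie head to head on chromosome 11 with 16.2 kilobases between them, and Wnt9a had a mean TPM of 3.19 where Wnt3a had 0 counts. The other 3 pairs were low in both genes. Wnt6 and Wnt10a, 6.19 kilobases apart on chromosome 1, had mean levels of 0.32 and 0.13. Wnt9b and Wnt3 are 24.3 kilobases apart on chromosome 11, with mean levels of 0.050 and 0.34. Wnt10b and Wnt1 are 11.7 kilobases apart on chromosome 15, with mean levels of 0.010 and 0.

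Frizzled receptors were spread more evenly than the ligands: 8 of 10 were detected and the highest, Fzd1, held 23.0% ± 0.17 (SD) of their summed TPM. Fzd1 had a TPM of 14.1 and 15.01 and Fzd2 had 13.2 and 13.1, and the ranges of the pair did not overlap, although Fzd1 was only 1.07-fold and 1.15-fold higher. Fzd4, which also serves norrin in blood vessels, had 8.15 and 8.03.

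A group of 4 receptors followed at nearly the same level. Fzd5, known for its role in Paneth cells, had 5.91 and 6.71. Fzd3, known from axon guidance and planar cell polarity, had 6.02 and 6.38. Fzd7, a receptor of intestinal stem cells, had 5.25 and 6.30, and Fzd6, another polarity receptor, 5.63 and 5.80. In this group each neighbour in the order overlapped the next. Fzd8 was lower, with 1.89 and 2.09. Fzd10 (0.74 and 0.84) and Fzd9 (0.72 and 0.73) were below the limit in both libraries.

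Frizzled levels also depend on the transcript models behind them. Of the leading transcripts of the 26 members that averaged at least 5 TPM, 17 had the same length in the annotation of the files and in GENCODE M21, and 23 were within 10%. The 3 others were Fzd3-202 (4157 bases in the files, 12734 in M21), Fzd4-201 (3685 and 6720) and Rspo3-201 (2394 and 3085). The levels of these 3 were computed by the authors on the shorter models. The same holds for Fzd8-201, of a member that averaged under 5 TPM, with 3346 bases in the files and 5974 in M21.

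All 5 other receptors were detected. Ryk, a receptor with a Wif domain, had a TPM of 16.3 and 17.8 and Ror2, a receptor tyrosine kinase for Wnt5a, had 16.1 and 15.8. Lrp6, the co-receptor of the beta-catenin branch, had 12.5 and 13.0. Ror1 had 6.63 and 7.81, and Lrp5 4.33 and 4.49. Lrp6 was 2.88-fold and 2.89-fold higher than its relative Lrp5, and Ror2 was 2.42-fold and 2.02-fold higher than Ror1. None of the 5 overlapped its neighbour in this order, which covers all transcripts of a gene. The order of Ryk and Ror2 depended on this. Protein-coding transcripts of Ryk summed to 11.77 and 15.28 TPM and those of Ror2 to 16.04 and 15.57. On coding transcripts alone Ror2 was thus the higher in both libraries.

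The secreted antagonists had the highest summed TPM of the 8 roles, 180 and 205. Sfrp2, a decoy that binds Wnt proteins through a frizzled-like domain, had 78.0 and 91.1 (84.6 ± 9.32, SD), which was 44.0% ± 0.80 (SD) of the sum. Sfrp1 had 56.9 and 64.0. Sfrp2 was 1.37-fold and 1.42-fold above Sfrp1 and 4.03-fold and 3.96-fold above Wnt5a, the highest ligand. The order of Sfrp2 and Sfrp1 holds per length: by estimated counts Sfrp1 had more, 5827 and 7627 against 3497 and 4832.

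Dkk3, a divergent Dickkopf with little known action on Lrp5 and Lrp6, had 21.6 and 22.7. Dkk2 had 9.28 and 9.24. Dkk1, the classical Dickkopf inhibitor, had 1.15 and 0.95 and so crossed the limit. Dkk2 was 8.07-fold and 9.73-fold higher than Dkk1.

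Sfrp5 had 7.65 and 11.8, a range that includes both values of Dkk2. Frzb, also called Sfrp3, had 2.05 and 1.79. Notum, an enzyme that removes the lipid from Wnt proteins, had 2.48 and 1.35, a range that includes both values of Frzb. Of this, 1.57 and 0.50 were assigned to Notum-201, annotated as a retained-intron transcript with no coding sequence. The coding transcripts Notum-203 (0.45 and 0.85) and Notum-204 (0.46 and 0) were each below a TPM of 1. Sfrp4 had 0.38 and 1.34 and Wif1 0.24 and 0.47. Sfrp4, Notum and Sfrp5 were the 3 members furthest apart between the libraries on the log2(TPM + 1) scale.

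The Dkk receptors were unequal: Kremen1 had 9.71 and 8.71 and Kremen2 had 0.27 and 0.41, so that Kremen1 held 96.4% ± 1.27 (SD) of their sum. The exons of Kremen2 overlap 9530082P21Rik on the other strand, which had a mean TPM of 8.58, and no source used here names the strand setting of the counting. Reads of the 2 genes cannot be told apart where strand is ignored.

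Of the R-spondins, 3 of 4 were detected. Rspo3 had 14.5 and 14.9 and held 60.6% ± 0.38 (SD) of their sum. Rspo1 had 7.38 and 6.90, and Rspo2 2.04 and 2.67. Rspo4, known from nail development, had 0.070 and 0. The ranges of the 4 did not overlap, and Rspo3 was 1.96-fold and 2.16-fold above Rspo1.

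Wls, the carrier of lipid-modified ligands, had 50.5 and 54.8. Porcn, the enzyme that adds the lipid, had 6.0 and 6.19. Wls was therefore 8.41-fold and 8.86-fold higher than Porcn, over all transcripts of each gene. Targets of nonsense-mediated decay took 18.7% and 22.6% of Porcn output and a retained-intron transcript 10.5% and 11.3%. The protein-coding transcripts of Porcn summed to 4.26 and 4.09 TPM.

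Among the TCF/LEF factors, Tcf7l2 had 54.3 and 66.7 (60.5 ± 8.80, SD), which was 75.1% ± 2.50 (SD) of their sum. Tcf7l2 is the factor that fetal intestinal progenitors are known to need. Tcf7l1, mainly a repressor, had 13.5 and 12.6 and Tcf7 had 5.73 and 6.86. Lef1 was below the limit, with 0.53 and 0.69, so that Tcf7l2 was 102-fold and 96.7-fold higher. The ranges of the 4 factors did not overlap. These levels cover all transcripts of a gene, and the protein-coding transcripts of Tcf7l2 summed to 33.8 and 37.0.

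The deposited tables also split each gene among its annotated transcripts. This split was described for the 26 members that averaged at least 5 TPM, of which 11 had 1 transcript: Dkk2, Dkk3, Fzd1, Fzd2, Fzd4, Fzd7, Ror1, Rspo3, Sfrp1, Sfrp5 and Wls. In all 26 the leading transcript was annotated as protein-coding. Of the 15 members with several transcripts, 4 had a leading transcript with at least 90% of the output in both libraries, where 23.0% of 8182 genes with several transcripts at this level did. The median leading share was 84.9%.

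The 4 were Fzd3 (Fzd3-202, 100% in both), Sfrp2 (Sfrp2-201, 98.0% and 99.7%), Kremen1 (Kremen1-201, 96.1% and 95.9%) and Fzd5 (Fzd5-201, 91.9% and 90.8%). Rspo1-201 with 94.7% and 89.1% and Lrp6-201 with 91.4% and 88.4% passed in replicate 1 alone. Tcf7l1-201 had 89.8% and 87.2%, Tcf7-201 87.1% and 82.7%, and Fzd6-202 82.8% and 77.4%.

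**Figure D2:**
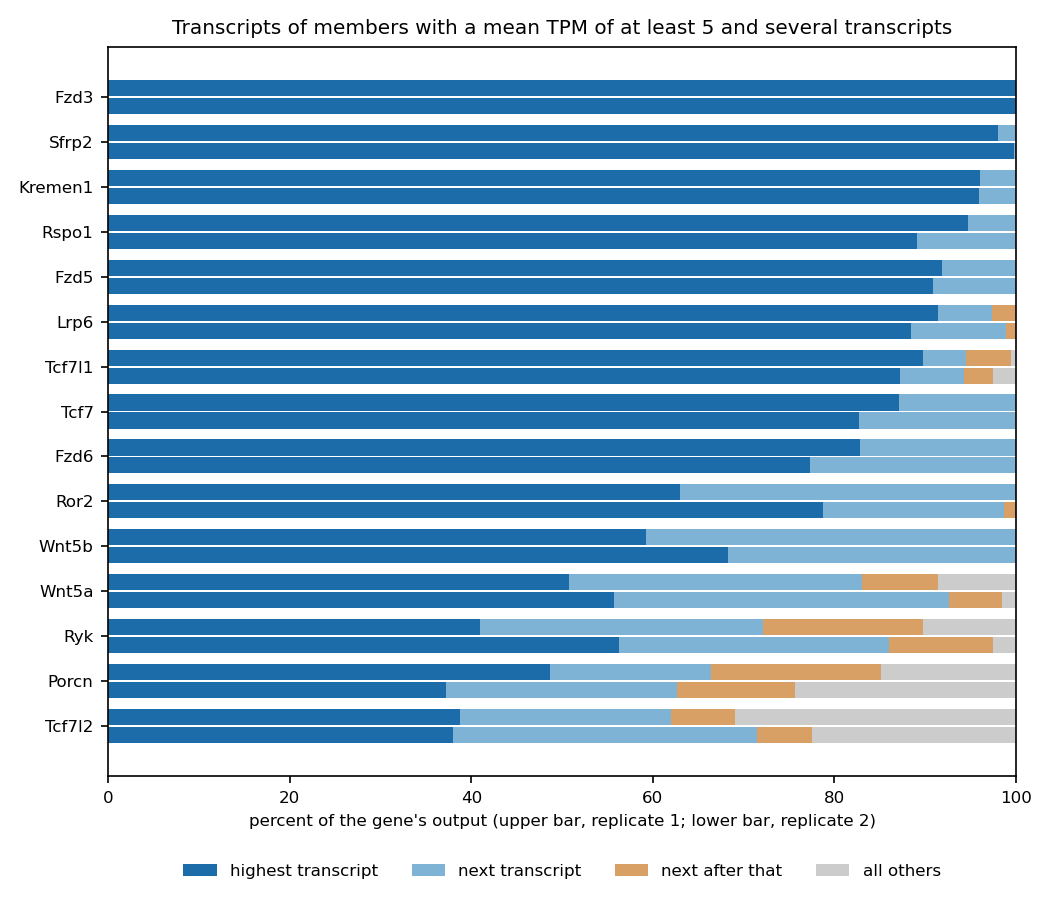
Percent of each gene's output on its highest, next and further transcripts, for the 15 members that averaged at least 5 TPM and have several transcripts (upper bar replicate 1, lower bar replicate 2). Bars are nearly whole for Fzd3, Sfrp2 and Kremen1 and most divided for Tcf7l2, with a leading share of 38.8% and 38.0%, and Porcn, with 48.6% and 37.3%.

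Wnt5a was divided between 2 coding transcripts, like Wnt5b, but not all of its output lay on them. Processed transcripts with no coding sequence, 4 in the annotation, took 17.0% and 7.35%. The coding transcripts of Wnt5a summed to 16.1 and 21.3 TPM. Wnt5a-201 took 50.8% and 55.7% and Wnt5a-202 took 32.2% and 37.0%, and their annotated starts are 6.66 kilobases apart on chromosome 14. Their annotated coding sequences, 1140 and 1080 bases, differ by 60 bases. No RefSeq promoter window was matched for Wnt5a.

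Ryk, Porcn and Ror2 were the 3 of 15 members whose leading share differed by over 10 percentage points between the libraries, where 12.7% of genes with several transcripts did. Ror2-201 took 63.0% and 78.7%, and Ror2-202 took 37.0% and 20.0%. Ryk-201 took 40.9% and 56.3%, and Ryk-203 took 31.2% and 29.8%. Porcn-203 took 48.6% and 37.3%, and Porcn-201 took 17.8% and 25.4%. At 258 and 293 estimated counts, Porcn was the least deeply counted of the 26.

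The coding transcripts of Porcn and Ryk differ by short stretches, printed below in capitals as they stand in the M21 transcripts, with 15 bases of the same transcript on each side in lower case. They cover coding bases alone: Ryk-201 and Ryk-203, of 2852 and 2505 bases, also differ at both ends.
Porcn-201, stretch of 18 bases absent from Porcn-203, chrX:8203026-8203043 (minus strand): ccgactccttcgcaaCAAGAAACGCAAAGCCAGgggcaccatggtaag
Porcn-201, stretch of 15 bases absent from Porcn-203, chrX:8201658-8201672 (minus strand): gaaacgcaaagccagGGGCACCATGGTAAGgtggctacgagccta
Ryk-203, stretch of 9 bases absent from Ryk-201, chr9:102885994-102886002 (plus strand): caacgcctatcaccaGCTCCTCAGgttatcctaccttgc
Both Porcn stretches are whole exons and lie next to each other in Porcn-201, while the Ryk stretch is part of an exon. All 3 have a length that keeps the reading frame. Only reads that cover these bases or their junctions, or the different ends of the transcripts, separate the members of each pair. The Ror2-202 and Porcn-201 shares and these stretches were picked out after their values were seen.

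Tcf7l2 had the lowest mean leading share, although Porcn was lower in replicate 2 and by the posterior mean estimate (32.2% against 37.0% on average). Tcf7l2-209, a coding transcript, took 38.8% and 38.0%. Tcf7l2-206, annotated as a retained-intron transcript with no coding sequence, took 23.2% and 33.5%. It measures 1041 bases in the files and 1087 in M21. All retained-intron transcripts of Tcf7l2 together took 36.7% and 43.7%. Over its protein-coding transcripts alone, Tcf7l2-209 held a mean of 65.4%.

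The other genes of the pathway were taken from 7 lists with 73 different genes, of which 61 were detected in both libraries and 11 in neither. The share detected in both was 62.7% over all protein-coding genes. The lists were chosen with earlier results of these data known, so their detection counts are not a result about the pathway. The median TPM of the 73 genes was 9.32, and some genes stand in more than 1 list. Of the 73, only Celsr2, a polarity cadherin with 5.15 and 2.66, was over 1.5-fold apart between the libraries on the log2(TPM + 1) scale, where 4.50% of 15866 genes were. The R-spondin receptors and their ubiquitin ligases numbered 5, with 4 detected. Lgr4 had the highest level, with 22.9 and 24.6, followed by the ligases Rnf43 (11.7 and 12.3) and Znrf3 (7.45 and 8.01), while Lgr6 was at 0.40 and 0.38.

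All 15 genes of the cytoplasmic relay and destruction complex were detected. Ctnnb1, which encodes beta-catenin, had 312 and 329. The casein kinase genes Csnk1a1 (166 and 185) and Csnk1d (87.8 and 89.2) followed. All 10 nuclear partners of beta-catenin and TCF were detected too, led by the short Groucho-related repressor Tle5 with 570 and 519, the co-activator Bcl9 with 37.2 and 33.6 and the inhibitor Ctnnbip1 with 33.99 and 35.8.

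Of 14 planar cell polarity genes, 12 were detected. Ptk7 had 50.8 and 55.0, Prickle1 17.5 and 19.8, and Vangl1 13.2 and 11.9, while Celsr1 was at 0.86 and 0.61. Of 16 feedback and target genes, 14 were detected. Myc had 82.5 and 90.1, Ccnd1 54.6 and 63.8, and Sox9 29.1 and 34.5. Apcdd1 (0.59 and 0.50) and Sp5 (0.48 and 0.48) were below the limit.

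Of 11 other extracellular modulators, 5 were detected. Igfbp4 had 353 and 368, Shisa3 12.5 and 12.7, and Shisa2 7.80 and 8.73. Dkkl1, Trabd2b, Draxin, Cer1, Sost and Dkk4 were all below a TPM of 1, from 0.73 for Dkkl1 in replicate 1 to 0 for Dkk4 in replicate 2. Of 6 glypicans, the cell-surface proteoglycans that bind Wnt proteins, 5 were detected: Gpc3 had 419 and 506, Gpc1 30.6 and 31.6, and Gpc6 26.3 and 26.7. Gpc5 was at 0.14 and 0.13.

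**Figure D3:**
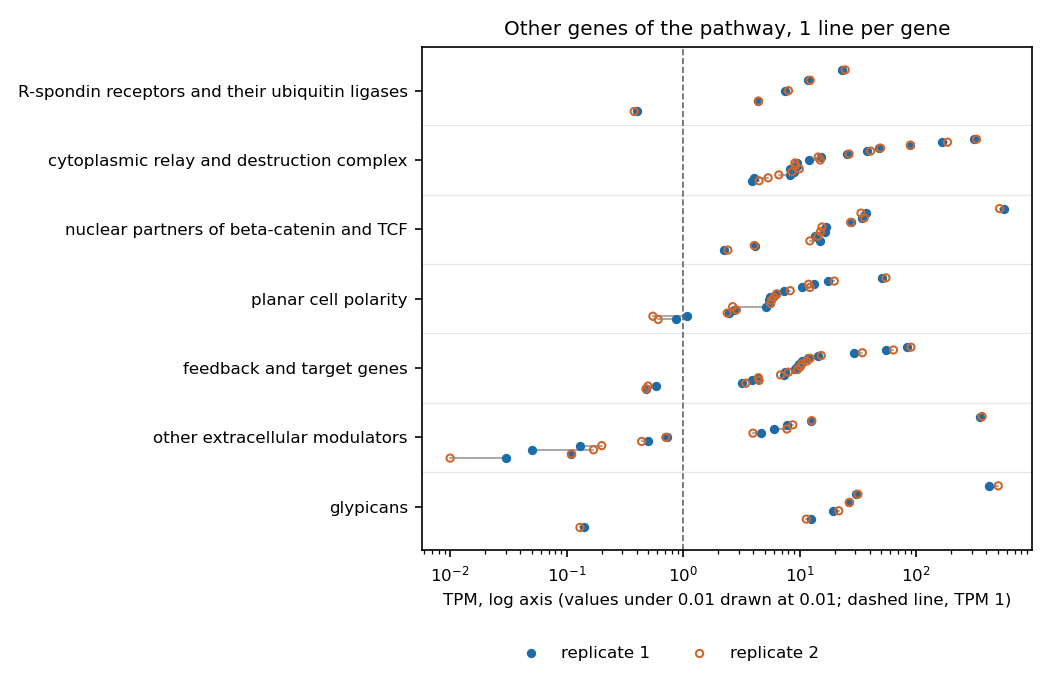
TPM (log axis) of the other pathway genes in 7 lists, 1 line per gene, with replicate 1 as filled and replicate 2 as open points and the limit of TPM 1 dashed. The relay and nuclear partner lists lie wholly right of the limit, and 6 of 11 extracellular modulators lie left of it.

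Between the libraries, 1 of the 38 members with a TPM of at least 1 in either was over 1.5-fold apart on the log2(TPM + 1) scale, which understates the change of low genes. The share over all genes was 4.50%, as above. That member was Sfrp4, with 15 counts in replicate 1 and 62 in replicate 2 and a log2 ratio of 0.76. The counting interval of its ratio of count rates ran from 1.96 to 6.59. Just inside the rule's limit were Notum, at a log2 ratio of -0.57, and Sfrp5, at 0.56.

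Across the 38 members, 26 were higher in replicate 2 and 12 in replicate 1, where 54.4% of all 15866 genes were higher in replicate 2. The count was 23 of 38 on counts scaled by edgeR's TMM factors and 24 of 38 with DESeq2 size factors. The median log2 ratio was 0.060 for the members and 0.019 for all genes, so the typical difference was small. For 17 of the 38 members the 95% counting interval left out a ratio of 1, of which 14 were higher in replicate 2 and 3 lower. The share over all genes was not computed for these intervals, which cover counting error only. The libraries differed beyond such error over all genes (chi-square of 18.3 per degree of freedom). The 17 therefore cannot be read as particular to the members. The 3 lower ones were Kremen1 (0.81 to 0.96), Tcf7l1 (0.82 to 0.99) and Notum (0.49 to 0.97). Among the 14 were Sfrp1 (1.07 to 1.14), Sfrp2 (1.11 to 1.22), Tcf7l2 (1.11 to 1.21) and Wnt5a (1.22 to 1.36). The intervals cover all transcripts of a gene. For Tcf7l2, protein-coding transcripts summed to 33.8 and 37.0 TPM and retained-intron transcripts to 19.9 and 29.1. The summed TPM of 5 mesenchyme markers was 2872 in replicate 1 and 3252 in replicate 2, with 5 of 5 higher in replicate 2. That of 5 epithelial markers was 2663 and 2562, with 1 of 5 higher. That of 5 smooth muscle markers was 2793 and 2795, with 2 of 5 higher. The 5 mesothelium markers summed to 102 and 102, with 3 of 5 higher. Markers of the interstitial cells of Cajal summed to 55.5 and 66.6, with 3 of 3 higher. The part of any of these lists in the levels of Wnt5a, Sfrp1 and Sfrp2 was not tested.

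**Figure D4:**
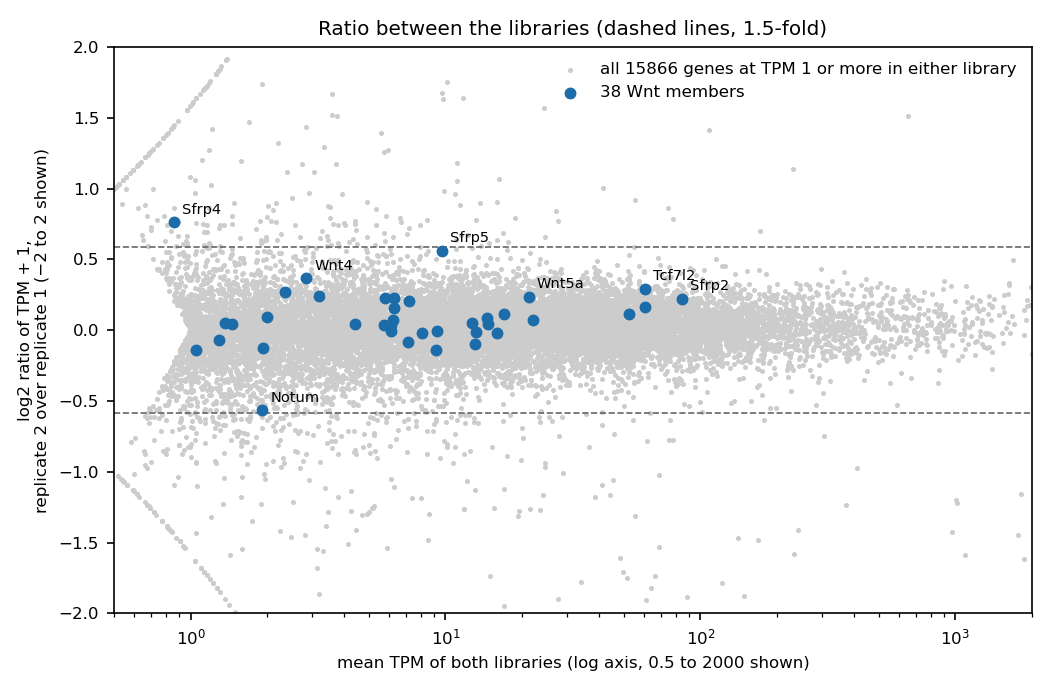
Log2 ratio of TPM + 1 between replicate 2 and replicate 1 against mean TPM (log axis) for 38 members (blue) and all 15866 genes that reached 1 TPM in either library (grey), with 1.5-fold dashed. Sfrp4 is the 1 member outside the dashed lines, and Notum and Sfrp5 lie just inside them.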

How the data were processed

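Total RNA (fragments over 200 nucleotides, 10 ng per library, with added ERCC spike-ins) of E15.5 intestine was sequenced in 2 libraries. The authors quantified genes and transcripts of GENCODE M4 on mm10, as their deposited readme records. Columns of the deposited tables, per the file headers, are expected counts, TPM, FPKM and, for transcripts, the percent of the gene's output, all estimated by the authors. No source used here names the quantifier, the strand setting or the treatment of ribosomal RNA. The totals were 34406872 and 40669822 estimated counts, and the libraries differed beyond sampling noise (chi-square of 18.3 per degree of freedom over 19707 genes). Spike-ins took 2.16% and 1.76% of counts and stayed inside the authors' TPM scale. Entries named by a number alone held 0.00016% and 0.00015% and were left out.

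Symbols and positions came from GENCODE M21 (GRCm38) by Ensembl identifier without version. Promoter windows came from RefSeq on GRCm38.p6, and the printed transcript stretches from the M21 transcripts. Tle5 is named Aes in M21. The members and all gene lists were chosen with earlier results of these data known. The members are every gene of the given list, with values per library from a mean TPM of 1. Transcripts were named where they led, or held 20% in both libraries, in members with a mean TPM of at least 5. Those of Notum, Wnt11, Wnt2 and Fzd8, members below that level, were added after values were seen. The sums by transcript type and the single markers named were also picked out after values were seen. Of each pathway list, the 3 highest genes and those below a TPM of 1 in both libraries were named. Ratios are log2((TPM of replicate 2 + 1)/(TPM of replicate 1 + 1)). Counting intervals are exact conditional binomial intervals at 95% on rounded expected counts, and they cover counting error only. Nothing beyond the 2 pools separates biological from technical spread. The ratio and interval code was tested on simulated data. The scaling alternatives used edgeR 4.0.16 and DESeq2 1.42.0 in R 4.3.3, with expected counts rounded. Words of 31 bases were compared with all other M21 transcripts on both strands, a check added after values were seen.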

Additional observations from a re-analysis of the deposited data

How the results depend on the processing

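Detected members numbered 36, and 41 at a limit of TPM 0.5, 26 at TPM 5, 36 by posterior mean TPM, 32 by FPKM at 1, 37 on TPM without spike-ins, phiX and the mitochondrial genome, and 37 in either library alone. Members over 1.5-fold apart numbered 1 (Sfrp4), 3 with a pseudocount of 0.1 (Notum, Sfrp4 and Sfrp5) and 0 at a fold of 2. Without a low-value filter, under TMM or DESeq2 scaling and by posterior mean TPM the count was 1, Sfrp4 each time.

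The median share of the highest member over the 8 roles was 57.2%, and 56.5% to 58.0% in single libraries. By expected counts, not divided by length, it was 65.6%, with 67.6% for Wnt5a, 22.7% for Fzd1, 98.4% for Kremen1, 63.6% for Rspo3 and 94.1% for Wls. In 2 roles another member then led, Lrp6 with 39.4% of the other receptors and Sfrp1 with 46.7% of the antagonists. Over members detected in both libraries alone, which leaves fewer genes in the sum, the median was 58.6%, with 56.5% for Wnt5a, 23.5% for Fzd1 and 100% for Kremen1. By posterior mean TPM, Fzd1 held 22.8%, Rspo3 60.0% and Wls 89.2%. The cause of these shifts by posterior mean was not tested.

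The median leading transcript share was 84.9%, and 82.7% to 87.1% in single libraries. Members with at least 90% numbered 4, 4 to 6 in single libraries and 6 over protein-coding transcripts alone. The leading transcript was the same in all 15 members under each of the 4 alternatives run, but its share moved by over 1 SD in 13 of 60 values. By posterior mean percent, Wnt5b-203 fell from a mean of 63.7% to 47.4% and Porcn-203 from 42.9% to 32.2%. Over protein-coding transcripts alone, which leaves fewer transcripts in the sum, Tcf7l2-209 went from 38.4% to 65.4% and Porcn-203 to 62.5%. No paired analysis was possible because there is 1 group. With 2 libraries, the SD is a rough guide, and members under a TPM of 1 rest on at most 74 counts per library.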

Other observations

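Of the 56 members, 8 shared over 5% of their 31-base words with transcripts of other genes, and the median share was 0.24%. Notum shared 33.0%, Fzd5 17.2%, Lef1 14.6%, Sfrp2 13.7%, Rspo3 12.2%, Kremen2 11.8%, Wnt11 8.02% and Wnt4 6.62%. The exons of 11 members overlap a gene on the other strand, and those of none overlap a gene on the same strand. For Notum these are Myadml2os and Notumos, listed at mean TPM values of 0 and 0.025. For Sfrp2 it is Gm26771 at 2.45, and for Wnt5a it is Gm2670 at 0.89. The antisense gene of Kremen2, 9530082P21Rik, was the highest of those measured, at 8.58, and Kremen2 itself was at 0.34.

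The annotated start of Wnt5b-201 lies 17.8 kilobases beyond the start of Wnt5b-202. For Tcf7, Tcf7-201 and Tcf7-202 start 443 bases apart and share an annotated coding length of 909 bases.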
